A study of Homo sapiens with 4 samples.

Results

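Wnt signalling is passed from receptors at the cell surface to the nucleus by a small set of proteins, and 10 genes of that core route were examined for N6-methyladenosine (m6A), the methylated form of adenosine found within messenger RNAs. They were LRP5, LRP6 and FZD5 (receptors), RNF43 and ZNRF3 (ubiquitin ligases that remove receptors), APC, AXIN1 and AXIN2 (scaffolds of the destruction complex), and CTNNB1 and TCF7L2 (effectors). The genes were chosen by their place in the pathway, although earlier results of these data were known at that time. They are 10 of the 20046 protein-coding genes of the annotation. A peak was assigned to a gene where its summit, the position of highest enrichment, lay between the start and the end of that gene. By this rule 47 of 24607 peaks of replicate 1 and 35 of 19318 peaks of replicate 2 belonged to the 10 genes.

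A Wnt ligand binds a Frizzled receptor together with LRP5 or LRP6, and the destruction complex then no longer marks β-catenin, the product of CTNNB1, for degradation. β-catenin moves to the nucleus, where it acts with factors such as TCF7L2. RNF43, ZNRF3 and AXIN2 are known as feedback inhibitors that the pathway itself induces, and mutation of APC, AXIN1, CTNNB1 or RNF43 is a common event in tumours of the digestive tract. In messenger RNA, m6A is mostly placed at the adenosine of sequences such as GGAC, which belongs to the wider consensus DRACH (in which D stands for A, G or T, R stands for A or G, and H stands for A, C or T), and it is known to be found often near stop codons and in long internal exons.

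The samples were OE-19 cells, an established line of adenocarcinoma of the esophagogastric junction, grown without any treatment or genetic change that the labels name. The series held 2 samples immunoprecipitated (IP) with an m6A antibody and 2 input samples taken without antibody, numbered 1 and 2. Each IP sample had its own peak list, while the input samples had no file here, so the 2 IP lists were compared only with each other. No condition was compared. A control coverage enters each fold enrichment of the lists, and it is not said whether that control was the input. The study calls them biological replicates, but nothing in the labels says that they came from separate cultures. The labels describe cells fixed with UV light and lysed, whereas the study's methods describe fragmentation of purified total RNA. Since 1 cell line stands for the tissue, nothing here describes AEG tumours in general.

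Among 12 genes typical of glandular epithelium, 5 had an exonic peak in both lists (CDH1, CLDN4, GATA6, CDX2 and MUC1), and none of 9 genes typical of blood, connective tissue or vessel cells did, although COL1A1 had 1 peak in replicate 1. The abundant epithelial transcripts EPCAM, KRT8, KRT18, KRT19, CLDN7 and ERBB2 had no exonic peak in either list. Over all protein-coding genes 33.4% had an exonic peak in both lists, so 5 of 12 says little about the cell type. A peak list does not measure expression either, so these counts check the label only weakly.

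To explore how widely these transcripts carried m6A peaks, summits in exons were counted. Of the 10 genes, 9 carried exonic peaks in both lists and CTNNB1 carried one in replicate 1 only. Over all protein-coding genes the corresponding share was 33.4%, and among the 7004 genes whose canonical transcript was as long as those of the 10 genes (3661 to 10704 nt) it was 47.5%. Because the 10 genes were named for their role, this count describes them and no test was made on it.

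The 10 genes held 40 exonic and 7 intronic peaks in replicate 1, and 27 exonic and 8 intronic peaks in replicate 2. All intronic peaks lay in AXIN1 (5 and 4), LRP5 (2 and 3) and LRP6 (0 and 1). Of the exonic peaks of replicate 1, 28 (70.0%, 95% Wilson interval 54.6% to 81.9%) were overlapped by at least 1 bp of a replicate 2 peak, and in the other direction all 27 were (100%, interval 87.5% to 100%). The shares over the exonic peaks of all protein-coding genes were 60.6% and 95.9%. The 12 exonic peaks found in replicate 1 alone came from LRP5 (5), ZNRF3 (2), AXIN1, AXIN2, CTNNB1, TCF7L2 and LRP6 (1 each). The map of the peaks on the spliced transcripts shows that the replicates placed the shared peaks at nearly the same positions, with a median distance of 18.5 nt between paired summits.

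**Figure D1:**
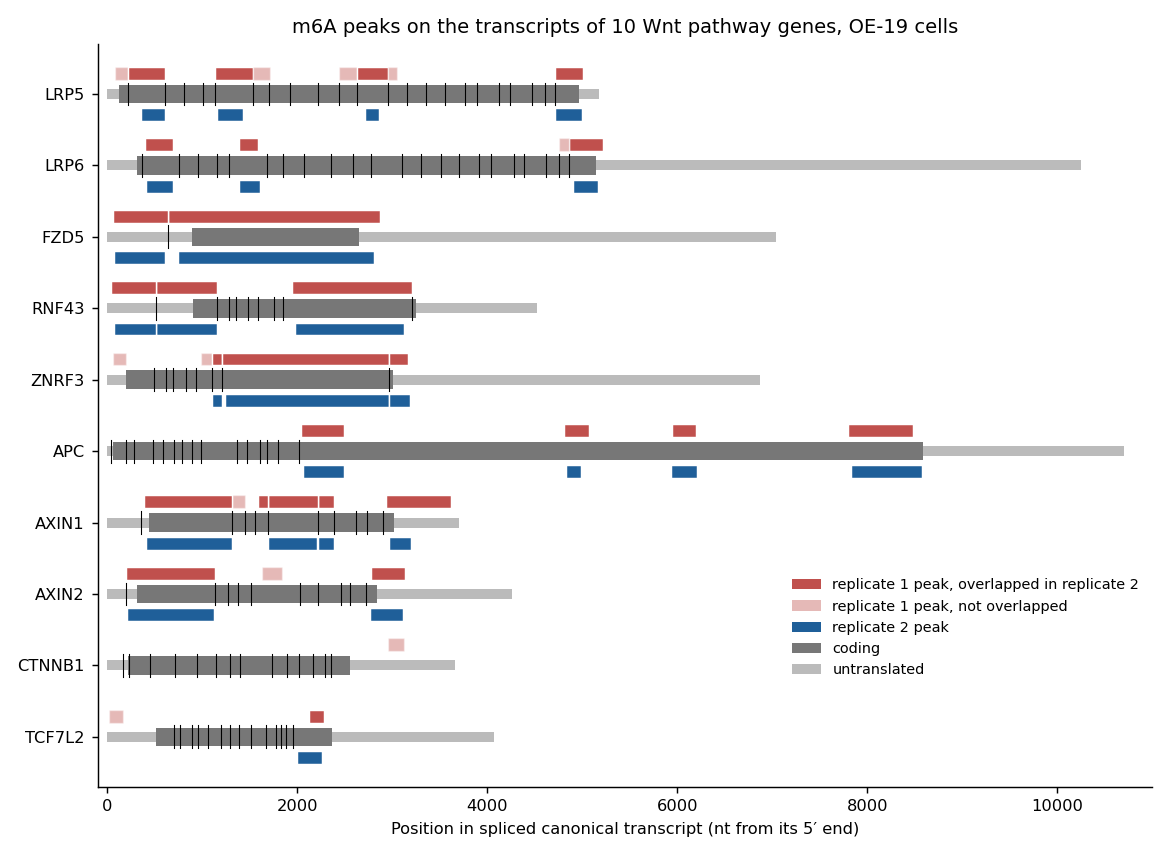
Exonic m6A peaks of 10 Wnt pathway genes drawn on their spliced canonical transcripts (x axis, nt from the 5′ end), with replicate 1 above and replicate 2 below each transcript. Thick dark bars are coding sequence, thin light bars are untranslated, and vertical ticks are exon junctions. APC carried 4 peaks in each replicate, all within its last exon, and pale bars mark replicate 1 peaks with no overlap in replicate 2. The 2 exons used only by other transcripts (AXIN2 and LRP5) are not drawn.

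The lists give fold enrichment at the summit, which is the IP coverage over the control coverage, each with 1 added. Since the p-value depends on the same pair of quantities, both could be solved for 99.9% of the peaks of each list, which gave the number of IP fragments over a summit and the control coverage, in fragments, against which it was called. At the exonic summits of the 10 genes the IP fragments ranged from 13 to 193 in replicate 1 (median 69.5) and from 23 to 210 in replicate 2 (median 76), against medians of 44 and 51 over all exonic peaks. The control coverage ranged from 1 to 52 (median 12) and from 4 to 81 (median 20), against medians of 6 and 9. By these medians the peaks of the 10 genes rested on more fragments than most, in the IP and in the control alike. The genes differed, however, and the APC peaks had 23 to 50 IP fragments over a control of 2.83 to 10. An interval for each enrichment was taken from the 2 fragment numbers (exact binomial, 95%), without the added 1. These intervals cover counting error only, since fragments copied by PCR are not independent molecules.

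The receptors were considered first. LRP5 and LRP6 are the co-receptors that join Frizzled in binding Wnt, and they are close relatives, identical at 1135 of 1598 aligned residues (71.0%). Each canonical transcript has 23 exons, and exon 6 measured 397 nt in both. Both genes carried peaks in both replicates in the same 3 exons, namely exon 2, exon 6 and the start of exon 23, shortly before the stop codon. In exon 2 the replicate 1 summit lay in codon 103 of LRP5 and codon 79 of LRP6, where codon 103 aligns with codon 90 of LRP6. In exon 6 the summit lay in codon 380 of LRP5, which aligns with codon 367 of LRP6, whose own summit was in codon 392. In exon 23 the replicate 1 summits were 185 nt (LRP5) and 160 nt (LRP6) before the stop codon. In replicate 2 the summits lay in codons 122 (LRP5) and 72 (LRP6) of exon 2. They lay in codons 386 and 395 in exon 6, and 199 nt and 115 nt before the stop codon in exon 23. The peaks thus matched by exon, and not by exact position.

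The sequences around the exon 6 summits of replicate 1 are shown because the same GGAC lies in both. They cover 50 nt on each side of the replicate 1 summit, read 5′ to 3′ on the coding strand of hg38, with GGAC in capitals.
LRP5 exon 6 (chr11:68386390-68386490, plus strand): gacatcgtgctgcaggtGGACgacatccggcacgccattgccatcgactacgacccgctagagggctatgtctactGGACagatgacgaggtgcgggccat
LRP6 exon 6 (chr12:12181191-12181291, minus strand): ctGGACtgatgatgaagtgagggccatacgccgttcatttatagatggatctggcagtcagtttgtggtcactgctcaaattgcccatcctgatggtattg
The second GGAC of the LRP5 window starts in codon 389 and the GGAC of the LRP6 window starts in codon 376, which are aligned codons. Its adenosine lay 28 nt after the LRP5 summit and 46 nt before the LRP6 summit of replicate 1. In replicate 2 it lay 11 nt after the LRP5 summit but outside the LRP6 window. That LRP6 window held only another GGAC, 49 nt after the summit. In both genes the site spans the codons TGG and ACN for tryptophan and threonine, the pair found in the YWTD repeats that build the propeller domains of these receptors. Over the whole coding sequences LRP5 held 82 GGAC (16.9 per kb) and LRP6 held 32 (6.61 per kb). At 22 aligned positions both genes had GGAC, and 12 of these 22 were such TGG-ACN pairs.

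Although the peaks sat in matching exons, the enrichment differed greatly. For LRP5 the fold enrichment at exons 2, 6 and 23 was 2.23, 2.01 and 2.56 in replicate 1 and 1.58, 1.69 and 1.74 in replicate 2. For LRP6 the corresponding values were 18.9, 3.46 and 18.3 in replicate 1 and 5.50, 6.16 and 11.2 in replicate 2. LRP6 was higher at each exon in each replicate. The counting intervals of the 2 genes were apart in 5 of the 6 comparisons, and they overlapped only at exon 6 in replicate 1. At exon 2 the scaled ratio of IP to control was 2.26 (1.62 to 3.19) for LRP5 and 27.8 (7.40 to 234) for LRP6 in replicate 1, and 1.59 (1.20 to 2.12) and 6.0 (2.95 to 13.8) in replicate 2.

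The fragment numbers show which part of the ratio differed. At these 3 exons LRP5 had between 98 and 138 IP fragments and a control coverage of 34 to 81. LRP6 had between 53 and 67 IP fragments and a control coverage of 2 to 12. LRP5 thus had more IP fragments than LRP6 at every matched exon, over a control that was higher still in proportion. Across all exonic peaks fold enrichment fell with control coverage (Spearman's rho = -0.56 over 18474 peaks of replicate 1 and -0.60 over 11993 peaks of replicate 2, a description across peaks that share 1 library). Among the 647 exonic peaks of replicate 1 whose control coverage was within 1.5 times that of LRP5 exon 2, the median fold enrichment was 2.41 and the LRP5 peak stood at percentile 41.8. Among the 3527 peaks with a control like that of LRP6 exon 2, the median was 6.74 and the LRP6 peak stood at percentile 97.1. In replicate 2 the same comparison put the LRP5 exon 2 peak at percentile 11.4 (365 peaks, median 2.10) and the LRP6 exon 2 peak at percentile 60.6 (3840 peaks, median 4.81). At exon 6 the percentiles were 29.1 (LRP5) and 35.0 (LRP6) in replicate 1, and 11.9 and 69.4 in replicate 2. At exon 23 they were 40.6 and 96.6 in replicate 1, and 7.66 and 91.3 in replicate 2. LRP6 thus stood above LRP5 among peaks of like control at each exon in each replicate. The percentiles of either gene varied between replicates and exons. Transcript abundance was not measured, and its part in the control coverage was not tested.

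**Figure D2:**
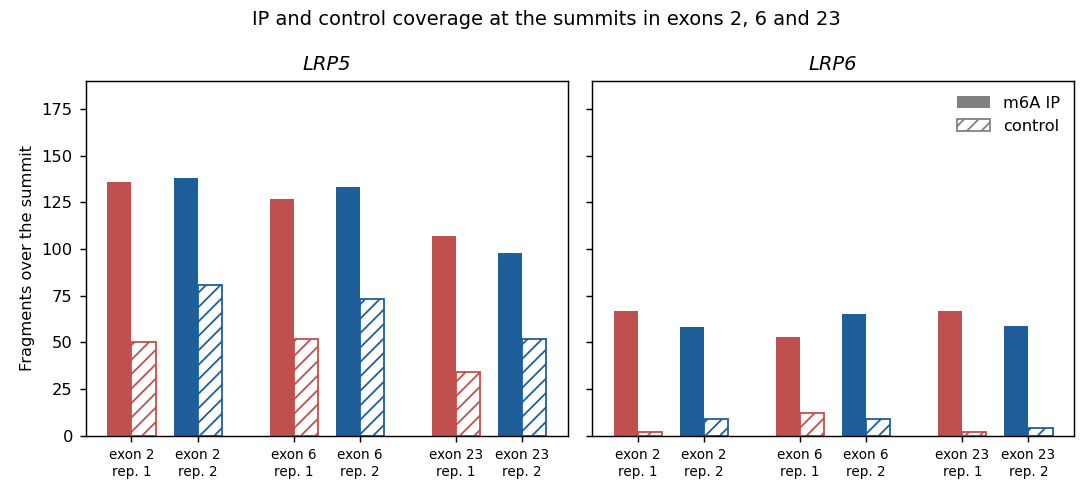
Fragments over the peak summits (y axis) in exons 2, 6 and 23 of LRP5 and LRP6, with solid bars for the m6A IP and hatched bars for the control, in replicates 1 (red) and 2 (blue). LRP5 had 98 to 138 IP fragments over a control of 34 to 81, and LRP6 had 53 to 67 over 2 to 12.

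LRP5 had a further peak in exon 12 in both replicates, with fold enrichments of 2.51 and 2.10 over 156 and 166 IP fragments, the most of any LRP5 peak. It is shown because its window opens with a pair of GGAC.
LRP5 exon 12 (chr11:68413830-68413930, plus strand): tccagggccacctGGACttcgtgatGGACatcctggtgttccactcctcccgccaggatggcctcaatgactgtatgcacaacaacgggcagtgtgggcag
The 5 other exonic peaks of LRP5 were found in replicate 1 only, with fold enrichments of 1.57 to 3.19. They lay in exons 1, 7, 11 and 13 and in an exon of another transcript. Of all genes with a shared exonic peak (6613), LRP5 stood at percentile 1.28 by its best shared peak and LRP6 at percentile 96.9, so that the 2 co-receptors stood near opposite ends.

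For LRP6, the windows of exons 2 and 23 are shown because these peaks of high enrichment held no GGAC at their replicate 1 summits. The replicate 2 window of exon 2 did hold a GGAC, 45 nt before the summit. Capitals mark the DRACH sequences of the replicate 1 windows.
LRP6 exon 2 (chr12:12244424-12244524, minus strand): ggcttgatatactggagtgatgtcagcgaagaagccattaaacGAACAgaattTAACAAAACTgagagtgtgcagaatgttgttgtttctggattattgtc
LRP6 exon 23 (chr12:12121238-12121338, minus strand): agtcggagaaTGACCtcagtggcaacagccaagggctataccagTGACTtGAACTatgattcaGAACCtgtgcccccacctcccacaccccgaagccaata
The exon 2 window held 3 DRACH sequences and the exon 23 window 4. Exon 23 of LRP6 is 5396 nt long, most of it 3′ untranslated, yet its peak lay in the first part of the exon, in coding sequence. The remaining LRP6 peak, in exon 22 of replicate 1 (5.89), rested on 13 IP fragments over a control of 1, and its interval ran from 1.62 to 458.

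FZD5 is a Frizzled receptor that binds the Wnt ligand directly. Its transcript has only 2 exons, and a peak of 2256 bp in replicate 1 and 2057 bp in replicate 2 spanned the coding sequence, all of which lies in exon 2 (6397 nt). The fold enrichment at the summit was 9.16 over 170 IP fragments in replicate 1 and 5.88 over 163 in replicate 2, with a control of 14.5 and 25. Among peaks of like control coverage these values stood at percentiles 97.7 and 92.9. A weaker peak lay in exon 1, in the 5′ untranslated region (2.64 and 3.33, with 72 and 74 IP fragments). The summit window of exon 2 is shown for its pair of adjacent GGAC.
FZD5 exon 2 (chr2:207767548-207767648, minus strand): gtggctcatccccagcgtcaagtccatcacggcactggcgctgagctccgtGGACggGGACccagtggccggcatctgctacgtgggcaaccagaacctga
The long 3′ untranslated region of FZD5 (4384 nt) held no peak summit in either replicate.

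RNF43 and ZNRF3 are transmembrane ubiquitin ligases that clear Frizzled and LRP from the cell surface, and R-spondins inhibit them. In RNF43, 3 peaks were found in both replicates, in exons 9, 2 and 1. The exon 9 peak (1356 nt exon) had fold enrichments of 4.85 and 3.69 over 193 and 210 IP fragments, the highest fragment numbers among the 10 genes. The exon 2 peak, which holds the start codon, had 4.23 and 3.24 over 157 and 166, and the exon 1 peak had 3.49 and 3.96 over 104 and 101. All 3 overlap an annotated protein-coding gene on the same strand, ENSG00000285897, and the exon 2 peak also overlaps TSPOAP1-AS1 on the other strand. The peak lists carry no strand, so reads of these genes cannot be told apart.
RNF43 exon 9 (chr17:58358239-58358339, minus strand): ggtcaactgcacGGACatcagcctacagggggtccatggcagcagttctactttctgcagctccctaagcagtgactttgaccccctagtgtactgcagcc
The window is shown because exon 9 holds most of the region of RNF43 that lies inside the cell, and its 1 GGAC stood 36 nt before the replicate 1 summit. Over the whole transcript, however, GGAC was less dense inside the RNF43 peaks (4.61 per kb) than outside them (6.08 per kb).

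ZNRF3, the homologue of RNF43, had its main peak in its longest fully coding exon, exon 8 (1752 nt), and the peak covered 1850 bp in replicate 1 and 1760 bp in replicate 2. Its fold enrichment was 18.5 in replicate 1 and 5.59 in replicate 2, the widest gap between replicates among the shared peaks together with LRP6 exon 2. The IP fragments were 128 and 119, nearly the same, whereas the control coverage was 4.80 and 19. The scaled ratios were 22.1 (15.4 to 32.6) and 5.84 (3.58 to 10.0), and this was the only 1 of the 28 shared pairs whose counting intervals did not overlap. The control was a count of 39 fragments in 1 kb in replicate 1, scaled to the fragment length. In replicate 2 it was 19 fragments at the summit, so the 2 intervals rest on unlike counts.
ZNRF3 exon 8 (chr22:29050739-29050839, plus strand): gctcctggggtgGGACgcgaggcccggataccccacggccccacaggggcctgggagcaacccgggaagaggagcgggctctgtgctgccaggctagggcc
GGAC density was 8.12 per kb inside the ZNRF3 peaks and 2.65 per kb outside, and GC content was 65.8% inside and 47.1% outside. A peak near the stop codon, at the start of exon 9, had 7.0 and 7.46. A weaker peak in exon 7 had 4.51 and 2.60, with its summit at the last bases of a 103 nt exon.

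The destruction complex holds β-catenin for phosphorylation. APC, its largest scaffold, carried 4 peaks in each replicate, and all 4 were shared. They lay in exon 16, which at 8687 nt makes up 81.2% of the transcript. In order from the 5′ end the fold enrichments were 10.9, 4.31, 3.35 and 7.65 in replicate 1 and 6.54, 2.46, 4.29 and 7.79 in replicate 2. The first and the last peak of the exon were thus the higher ones in both lists, and the IP fragments showed the same order in both (49, 30, 23 and 50 against 34, 28, 23 and 45). The last peak lay 427 nt (replicate 1) and 544 nt (replicate 2) before the stop codon. The 3′ untranslated region of 2113 nt held no summit in either replicate.
APC exon 16 (chr5:112840427-112840527, plus strand): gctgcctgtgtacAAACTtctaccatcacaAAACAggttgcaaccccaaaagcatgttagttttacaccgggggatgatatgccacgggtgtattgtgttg
This window of the second peak is shown because none of the 4 replicate 1 summit windows of APC held GGAC, while 2 of the 4 windows in replicate 2 did. Capitals mark DRACH. Inside its peaks APC had 2.85 GGAC and 32.5 DRACH per kb, against 2.23 and 21.5 per kb outside.

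AXIN1, the scaffold that joins APC to the kinases of the complex, had the most shared exonic peaks (5 in replicate 1). The peaks with the most IP fragments were in exon 6 (7.10 and 5.70 over 110 and 103) and exon 2 (7.33 and 4.22 over 96 and 94). Peaks in exon 11 at the stop codon (3.84 and 2.95) and in exon 7 (2.81 and 2.80) were lower.
AXIN1 exon 6 (chr16:297930-298030, minus strand): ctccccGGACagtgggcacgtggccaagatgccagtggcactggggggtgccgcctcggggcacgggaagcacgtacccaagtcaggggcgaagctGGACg
The exon 6 window is shown as the one with the most IP fragments in AXIN1, and GGAC stood near both of its ends. The fifth peak lay across the end of exon 5 (138 nt), with its summit in the exon in replicate 1 (6.94) and in the following intron in replicate 2 (5.13). Intronic peaks of the 2 lists also overlapped at 2 other places of AXIN1, each over 8 to 18 IP fragments. Their fold enrichments were 6.13 and 5.92 at the first place and 5.24 and 4.44 at the second. At the second place the overlap was only 21 bp and the summits were 90 nt apart.

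AXIN2 has the same function as AXIN1 and is itself a target of the pathway. Its exon 2 peak (931 nt exon) had 5.15 and 3.79 over 169 and 167 IP fragments, the peak at the start of the last exon had 4.41 and 2.72 over 99 and 104, and a peak in an exon of another transcript had 4.63 and 3.42 over 88 and 76. In each of the 3 the IP fragments were alike and the control coverage was higher in replicate 2 (40.3 against 26.5, 35 against 17.8, and 20 against 15). The exon 2 peak overlaps the annotated gene ENSG00000266076 on the same strand. A peak in exon 6 (2.05) appeared in replicate 1 only. None of the AXIN2 summit windows of replicate 1 held GGAC, although GGAC was denser inside the AXIN2 peaks (3.99 per kb) than outside (1.45 per kb).

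Among the effectors, CTNNB1 was the only one of the 10 genes without a peak in both lists. Its 1 peak, in replicate 1, lay in the 3′ untranslated region, 513 nt after the start of the stop codon, with a fold enrichment of 2.62 over 65 IP fragments and a control of 20. The interval of its scaled ratio was 1.61 to 4.70. The CTNNB1 transcript held 23 GGAC outside this peak and none inside it. It also has its exon junctions closely spaced, with 58.0% of its length within 100 nt of a junction, and its single long exon is the last one. In LRP5, which had 4 shared exonic peaks, that share of length was 76.3%. A link between junction spacing and peaks was not tested.

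TCF7L2, the DNA-binding partner of β-catenin, had a shared peak in its last exon, 173 nt (replicate 1) and 171 nt (replicate 2) before the stop codon. The fold enrichment was 4.23 and 2.53 over 60 and 56 IP fragments, with a control of 11 and 20. Among genes with a shared peak it stood at percentile 8.29.
TCF7L2 exon 15 (chr10:113165747-113165847, plus strand): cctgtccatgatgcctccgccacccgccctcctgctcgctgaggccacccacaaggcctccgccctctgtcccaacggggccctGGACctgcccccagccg
The window holds 1 GGAC, 36 nt after the replicate 1 summit. A peak near the 5′ end of exon 1 (7.26) appeared in replicate 1 only. Summits within 200 nt of the transcript start were found in replicate 1 alone for TCF7L2, LRP5 and ZNRF3, and none of these 3 was overlapped in replicate 2. Over all genes 448 of 1589 such replicate 1 peaks (28.2%) were overlapped, which is less than the 60.6% of all exonic peaks. This group was singled out after its values were seen.

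**Figure D3:**
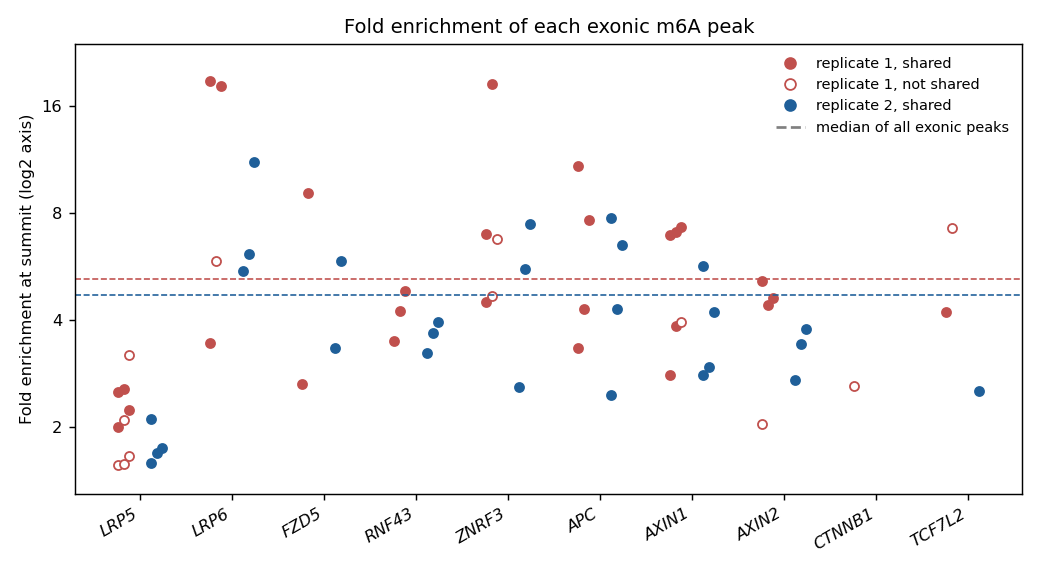
Fold enrichment at the summit (y axis, log2) of every exonic m6A peak of the 10 genes, in replicate 1 (red, open where replicate 2 had no overlapping peak) and replicate 2 (blue). Dashed lines are the medians of all exonic peaks (5.21 and 4.72). All LRP5 peaks lie below both medians, and most LRP6 peaks lie above.

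The order of the genes by their best shared peak, taken as the geometric mean of both replicates among 6613 genes, was LRP6 (percentile 96.9), ZNRF3 (84.7), APC (71.5), FZD5 (59.7), AXIN1 (47.7), AXIN2 (21.0), RNF43 (18.9), TCF7L2 (8.29) and LRP5 (1.28). This order takes no account of control coverage, with which fold enrichment fell. Among peaks of like control in replicate 1, the same peaks of AXIN2, RNF43, TCF7L2 and LRP5 stood at percentiles 88.9, 91.2, 49.4 and 53.7. In replicate 2 they stood at 79.5, 89.1, 15.7 and 43.9. A low place in this order is thus not a low enrichment for the control coverage of the peak. Neighbours such as AXIN2 and RNF43 cannot be separated, since their best values were 5.15 and 3.79 against 4.85 and 3.69. The median fold enrichment over the exonic peaks of the 10 genes was 4.27 in replicate 1 and 3.69 in replicate 2, beside 5.21 and 4.72 over all exonic peaks. The replicates ranked the peaks alike. Across the 28 shared pairs, log2 fold enrichment had Pearson's r = 0.79 and Spearman's rho = 0.76, against r = 0.70 over 10855 pairs of all genes. These describe peaks of the same 2 libraries, several from 1 transcript.

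To find where the replicates differed, IP and control were compared separately for the shared pairs. IP fragments had r = 0.98 on the log2 scale and a median ratio of replicate 1 to replicate 2 of 1.05. Independence of the 2 IP libraries was not tested, so this close agreement is not read as biological reproducibility. Control coverage had r = 0.91 and a median ratio of 0.66, with the control lower in replicate 1 in 22 of 28 pairs. The SD of the log2 ratio was 0.18 for IP fragments and 0.58 for control coverage. The control numbers were smaller (medians 12 and 20, against 69.5 and 76 IP fragments, over all exonic peaks of the 10 genes). Smaller counts spread more by counting error, and its part in the wider spread was not tested. Neither quantity was scaled for sequencing depth or for fragment length (123 and 141 bp), which also enter the median ratios. Over the 10842 pairs of all genes solved in both lists the median ratios were 1.07 and 0.67 and the SDs were 0.23 and 0.65, so the 10 genes resembled the others in this. Fold enrichment was higher in replicate 1 in 22 of the 28 pairs. Its median log2 ratio was 0.44, the same as over all pairs (0.44). In 27 of the 28 pairs the counting intervals of the 2 replicates overlapped.

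**Figure D4:**
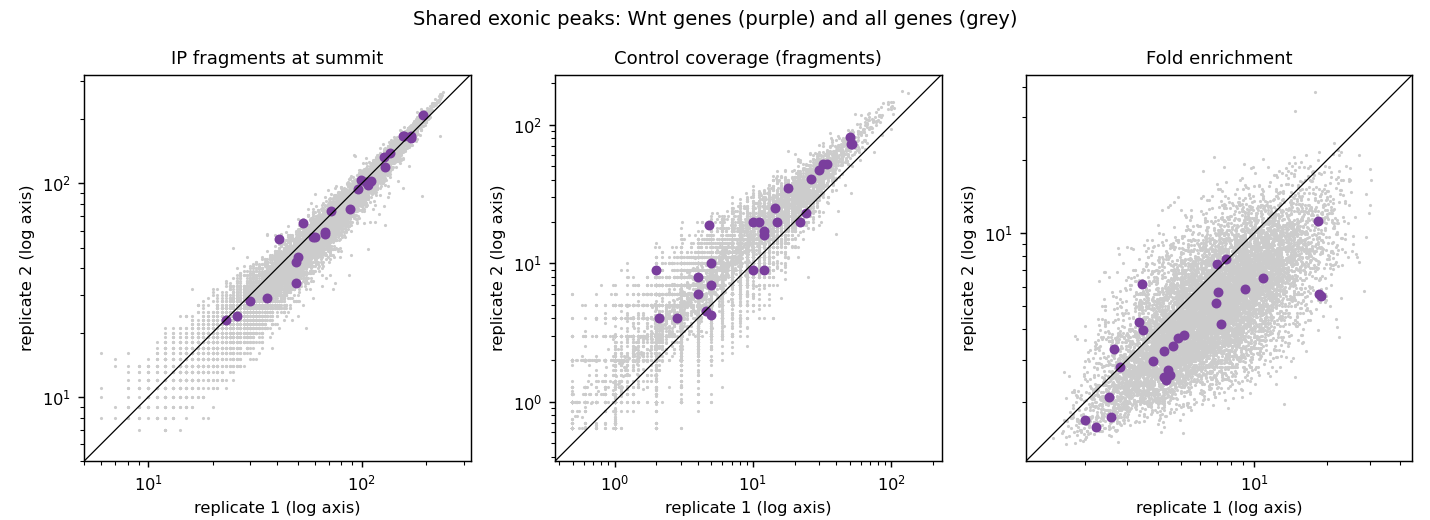
Replicate 1 (x) against replicate 2 (y) for shared exonic peaks, on log axes, with the 28 pairs of the 10 Wnt genes in purple and the pairs of all genes in grey. The panels show IP fragments at the summit, control coverage and fold enrichment, and the black line marks equality. IP fragments lie close to the line (median ratio 1.05), while control coverage lies mostly above it (median ratio 0.66).

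The position of the summits within the transcripts was then determined. On the canonical transcripts, 27 of 38 summits of replicate 1 (71.1%, Wilson interval 55.2% to 83.0%) and 18 of 26 of replicate 2 (69.2%, 50% to 83.5%) lay in coding sequence more than 200 nt from the stop codon. Over all exonic summits these shares were 47.6% and 46.7%. Near the stop codon (within 200 nt) lay 6 summits in each replicate (15.8% and 23.1%), against 24.7% and 27.3% over all. In the rest of the 3′ untranslated region there was 1 of 38 (2.63%, interval 0.466% to 13.5%) in replicate 1, that of CTNNB1, and 0 of 26 (interval up to 12.9%) in replicate 2, against 18.5% and 20.3% over all. In both replicates the interval of the coding share lay above the share over all genes, and that of the 3′ untranslated share lay below it. Summits of 1 transcript are not independent, and of the 27 coding summits of replicate 1, 7 were in LRP5, 5 in AXIN1 and 4 in exon 16 of APC. The 3′ untranslated regions ranged from 205 nt (LRP5) to 5101 nt (LRP6). That of LRP5 lies almost wholly within the stop codon window, so its summits could hardly fall in the rest. The part of region length in these shares was not tested.

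Long exons held 60.5% of the summits in replicate 1 and 73.1% in replicate 2, with a long exon taken as one of 400 nt or more, against 75.4% and 89.3% over all genes. The 10 transcripts had 68.0% of their length in such exons, which were 21 of their 135 exons. In LRP5 such an exon held 9.02% of the transcript, the smallest share among the 10 genes. Summits within 100 nt of an exon junction made up 28.9% and 11.5%, against 18.3% and 8.20% over all genes. In the 10 transcripts, 32.0% of the length lies that close to a junction. The interval of replicate 2 (4.0% to 29.0%) lay below that share of length and held the share over all genes, and that of replicate 1 (17.0% to 44.8%) held both.

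The sequence windows of 50 nt on each side of the summits were searched on the transcript strand. GGAC was found in 19 of 40 windows of replicate 1 (47.5%, interval 32.9% to 62.5%) and 16 of 27 of replicate 2 (59.3%, 40.7% to 75.5%), against 49.9% and 51.9% of the windows of all exonic peaks. The longer TGGAC, which contains GGAC, was found in 30% and 40.7%, against 18.9% and 20.1%, and the overall share lay below the interval in replicate 2 (24.5% to 59.3%) but within it in replicate 1 (18.1% to 45.4%). DRACH was found in 90.0% and 88.9%, against 85.7% and 89.0%. The reverse complement of GGAC, GTCC, was found in 27.5% and 14.8%, against 31.3% and 29.4%. Of the TGGAC windows, 5 of 12 in replicate 1 and 3 of 11 in replicate 2 came from LRP5, whose transcript is rich in GGAC both inside (18.4 per kb) and outside (14.5 per kb) its peaks.

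Across the whole length of the 10 transcripts, GGAC occurred 6.96 times per kb inside the peaks and 4.20 times outside, while DRACH occurred 18.4 and 20.2 times. GTCC, which has the same GC content, was also denser inside (3.78 against 2.86 per kb), and GC content was 59.0% inside and 45.1% outside. The part of base composition in the GGAC density was not tested.

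Finally, the other genes of the pathway were examined from a list of 106 genes grouped by role. An exonic peak in both replicates was found in 55 of them (51.9%), beside the 33.4% of all protein-coding genes. By role these were 5 of 22 Wnt ligands and secretion factors, 8 of 19 other receptors and R-spondin axis genes, 4 of 14 inhibitors outside the cell, 21 of 28 cytoplasmic transducers and 17 of 23 nuclear effectors. The shares were thus highest in the 2 groups that act inside the cell, a difference that was not tested. Many ligands are not expressed in any given cell line, and expression was not measured here. Of the rest, 7 genes had a peak in 1 list only and 44 in neither. Among the 55 genes, the best shared peaks of DKK3, KREMEN2, FZD4 and USP34 overlap another annotated gene (USP47, PKMYT1, PRSS23 and AHSA2P). The lists carry no strand, so reads of the overlapping genes cannot be told apart there.

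**Figure D5:**
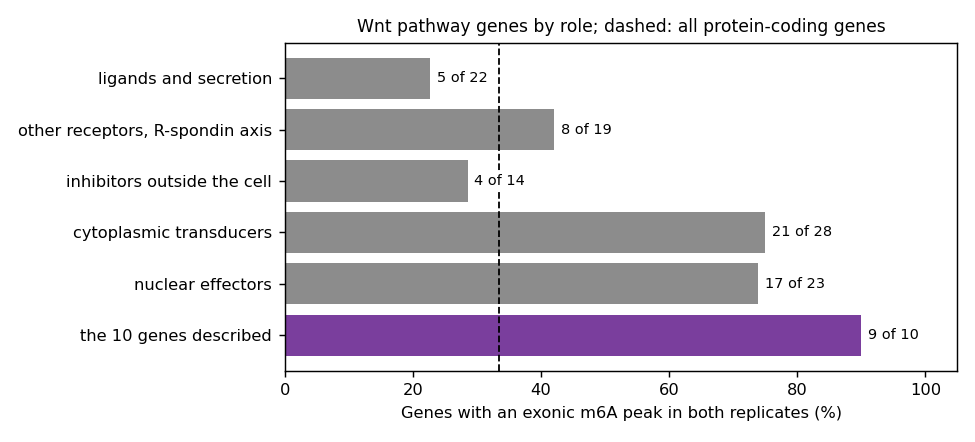
Share of Wnt pathway genes (x axis, percent) with an exonic m6A peak in both replicates, by role, with counts beside the bars. The dashed line is the share of all protein-coding genes (33.4%). Transducers (21 of 28) and nuclear effectors (17 of 23) lie above it, and ligands (5 of 22) below.

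The 6 other Wnt genes with the highest shared enrichment, by the geometric mean of the replicates, were APC2, a relative of APC (22.5 in replicate 1 and 14.5 in replicate 2), FRAT1, an inhibitor of GSK3 (18.0 and 12.8), CSNK1G1, a casein kinase (14.6 and 14.0), BTRC, the ubiquitin ligase subunit that recognises phosphorylated β-catenin (14.5 and 10.8), NKD2, an inhibitor that binds Dishevelled (14.5 and 9.79), and RNF146, the ligase that degrades axin (14.1 and 9.53). The CSNK1G1 peak overlaps the annotated gene ENSG00000259316. Only LRP6 among the 10 genes had a shared peak in this range. The R-spondin receptors, which act on RNF43 and ZNRF3, differed: LGR4 had a shared peak (6.18 and 4.61), LGR6 had one (9.63 and 3.51), and LGR5 had a peak in replicate 1 only (7.16). Of the tankyrases, which mark axin for RNF146, TNKS had shared peaks (5.18 and 5.05 in the best pair) and TNKS2 had none in either list.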

How the data were processed

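The material was 1 meRIP-seq peak list for each of 2 m6A IP samples of OE-19 cells. The submitters' processing notes name fastp, HISAT2, MACS2 and hg38, without versions, whereas the study's methods name TopHat2 for mapping. It is not said whether the input was the control. Per peak, the authors deposited a fold enrichment (ratio at the summit), −log10 of the p-value and −log10 of the q-value, the summit, and a score, which was not used. All peaks had q below 0.05.

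Summits were placed on GENCODE release 44 (hg38), using the canonical transcript of each gene and, for the gene of a peak, any annotated exon. Peaks were shared at an overlap of 1 bp. IP and control coverage were solved from fold enrichment and p, taking MACS2's formula, with 1 added to both. The pileups were whole multiples of 1 step in each list (1 over the step was 1.21 and 1.07). Control values fell on whole numbers at the summit, or on whole counts in 1 kb or 10 kb scaled by the fragment length. That length was taken as the shortest peak width (123 and 141 bp). In replicate 2, 10.4% of the control values were of neither kind. Solving for coverage was chosen after the data were seen. Read totals are not known beyond it. LRP5 and LRP6 were translated and aligned with Biopython 1.88 (BLOSUM62). Other steps used Python 3.11.15, numpy 2.4.6, scipy 1.17.1 and pysam 0.24.0, and were tested on simulated data.

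The named genes were all 10 members, the 6 other Wnt genes of highest shared fold enrichment, and all LGR and tankyrase genes. Genes and lists were chosen with earlier results of these data known. No significance test was made, since 1 group had files. Sequences come from the hg38 reference.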

Additional observations from a re-analysis of the deposited data

How the results depend on the processing

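Of 78 alternative values, 62 stayed within 1.5 times the count or within the counting interval. With peaks of fold enrichment 5 or more, 5 of the 10 genes and 31 of the other Wnt genes carried exonic peaks in both lists, the exonic peaks fell to 14 and 9, GGAC was found at 28.6% (replicate 1) and 77.8% (replicate 2) of summits, and 78.6% of replicate 1 summits lay in exons of 400 nt or more. The GGAC share was 22.5% and 22.2% with 25 nt on each side and 72.5% and 77.8% with 100 nt, and 33.3% at peak midpoints in replicate 2, so it depends on the window. A stop codon window of 100 nt held 5.26% of replicate 1 summits. At q of 1e-05 or less the median fold enrichment of replicate 2 was 4.22. Exons of 1000 nt or more held 31.6% (interval 19.1% to 47.5%) and 42.3% (25.5% to 61.1%) of summits, against 52.9% and 65.3% over all genes. The count of 9 genes shared needs both lists: replicate 1 alone gave 10 and replicate 2 alone gave 9.

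Fold enrichment is relative to a control whose coverage was often under 10 fragments, so high values are imprecise. A peak absent from 1 list is not absence of m6A. No paired analysis was possible because the result comes from no test and the inputs, which share the replicate numbers, had no file here.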

Other observations

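Intronic peaks of LRP5 included 1 found in both replicates, which began at position 68447217 of chromosome 11 (hg38), upstream of the last exon, with fold enrichments of 4.84 and 3.13 over 63 and 56 IP fragments. Both values exceed those of every exonic LRP5 peak shared between the replicates. Its control coverage was 10 and 16, against 34 to 81 at those exonic summits. In replicate 1 the interval of its scaled ratio (2.66 to 11.4) overlapped that of the exon 2 peak (1.62 to 3.19). Of the 7 intronic peaks of the 10 genes in replicate 1, 3 were shared, and of the 8 in replicate 2, 4 were, against 39.6% and 36.0% of the intronic peaks of all genes.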
